A study of Mus musculus with 12 samples.

Results

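Genomic stretches that lie between genes but outside gene deserts were examined for 5-hydroxymethylcytosine (5-hmC) in mouse dorsal root ganglia after nerve injury. The deposited tables of differentially hydroxymethylated regions give 1 annotation class to each region, and the regions described here are the rows of the class other intergenic, without the mitochondrial chromosome and a stretch of chromosome 2 from 77.65 to 78.02 Mb (mm9). They came to 21639 of the 70430 rows of the 3 tables. Between peripheral lesion and control there were 3745 of 12244 rows, between dorsal column lesion and control 10873 of 35242, and between the lesions 7021 of 22944. The left-out stretch held a further 58 rows of the class between dorsal column lesion and control, all higher after the lesion, and 51 between the lesions, all lower after the peripheral lesion. The class itself was taken from the annotation, but the left-out stretch of chromosome 2 is no annotation class. The members were chosen with earlier results of these data known. Every row had also been selected by the authors for a difference between its groups.

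Lumbar ganglia (L4 to L6) of mice, which hold the cell bodies of sensory neurons with satellite glia, Schwann cells, vessels and immune cells, were collected 24 h after injury. In the peripheral lesion group (PL) the sciatic nerve had been lesioned, and in the dorsal column lesion group (DCL) the central axon branch had been lesioned in the spinal cord. The control ganglia were the uninjured contralateral ganglia of PL animals, so the control animals carried a lesion on their other side, whereas the DCL animals were a separate set. Each group had 3 enriched libraries, each from ganglia of 3 pooled animals, and the labels give no strain, age or sex. The whole ganglion was used, so a change in 5-hmC per cell and a change in the mix of cells cannot be told apart, and no expression data are present against which the tissue label could be checked.

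5-hmC is formed when TET enzymes oxidise 5-methylcytosine, and it is either kept as a mark or removed through further oxidation and base excision repair. Neurons carry more of it than most other cells. Outside genes it is found mostly at enhancers and other distal regulatory DNA, where it often accompanies the opening or closing of an element. A distal element may act on a gene other than the nearest, so the genes named below give a position and no target.

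Read counts are those of the authors, normalised by a factor for each library, and the 3 values of a group are given in the order in which the tables list them. Each table was normalised on its own, so the same library has somewhat different values in different tables. A region listed in another table as well rests in part on the same libraries, so that listing is no independent repeat. The value of 1 read lay between 0.576 and 1.77 for the libraries of the PL table and between 0.534 and 3.14 for those of the DCL table. The first-listed DCL library had the highest value of 1 read, 3.14 against control and 2.34 against PL, and thus the fewest reads behind a given value. Log2 ratios below are of the group means after adding 1 to each mean. P-values are the authors' own, from a test that no source used here names, so how far they take the spread between pools of animals into account is unknown. With 3 libraries against 3, an exact permutation test cannot give a two-sided p below 0.1, and none was run on rows already selected for a difference.

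After the peripheral lesion the regions were split between gain and loss, whereas after the dorsal column lesion most were higher than in control. Of the 3745 regions between PL and control, 2031 were higher and 1714 lower in PL. The share that was higher, 54.2%, stood beside 50.4% of all 12240 listed regions outside the left-out stretches, of which 49.6% were lower. Of the 10873 regions between DCL and control, 9160 were higher in DCL, which is 84.2%, and 1713 lower, beside 82.8% higher and 17.2% lower among all listed regions. Of the 7021 regions between the lesions, 1801 were higher in PL, which is 25.7%, and 5220 lower, beside 25% higher and 75% lower among all listed regions. The direction in the class was therefore close to the background of each table. Gene bodies had 48.5% higher in PL, 81.9% higher in DCL and 24.97% higher in PL than in DCL. The smaller class of gene deserts had 47.5%, 72.5% and 34.7%. The gap between these classes was not tested, because no independent replicate of a region class exists.

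**Figure D1:**
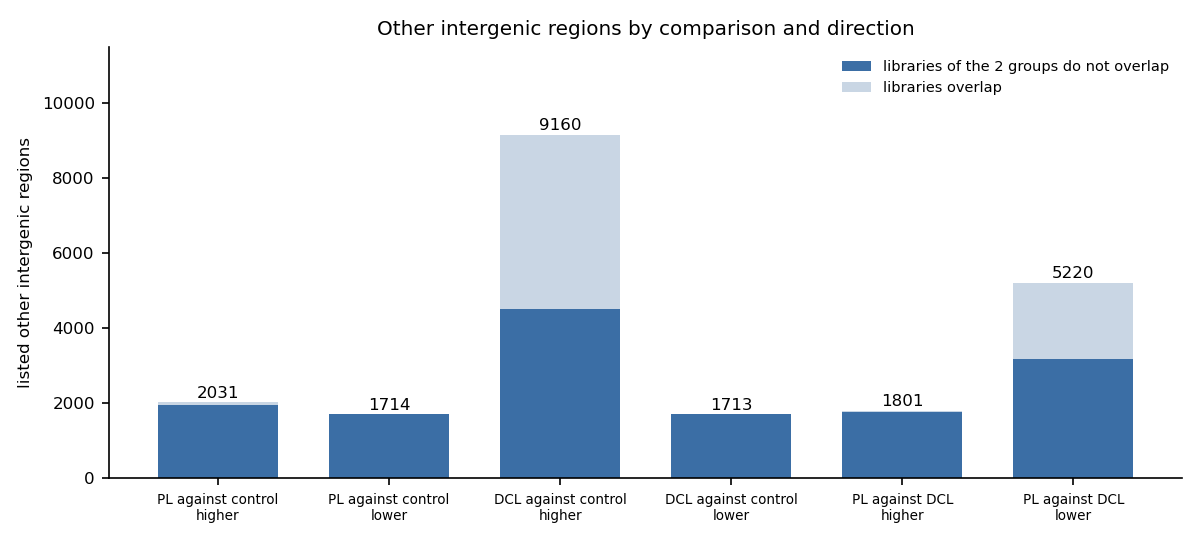
Bars give the number of listed other intergenic regions in each comparison and direction, split into regions whose 3 libraries of one group all lie beyond the 3 of the other (dark) and the rest (pale). The bar of regions higher in DCL than in control, 9160, is the tallest, and about as much of it is pale as dark.

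The libraries behind these counts did not all carry the same weight. Among regions higher in PL, the median normalised read count was 20.9, 22.5 and 24.8 in the PL libraries and 9.47, 9.35 and 9.22 in the control libraries. Among regions lower in PL, the medians were 6.35, 6 and 7.1 in PL and 19.99, 19.4 and 19.02 in control. The medians of all 3 PL libraries lay on the same side of control in each direction, in regions already selected for a difference between these groups. The libraries did not overlap in 96.1% of the higher regions, beside 95.6% of all listed ones, and in 99.9% of the lower ones, beside 100% of all listed ones after rounding.

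The DCL libraries differed among themselves. Among regions higher in DCL than in control, the medians were 59.6, 25.4 and 17.8 in the DCL libraries and 14.6, 14.3 and 13.9 in the control libraries. The first-listed DCL library was the highest of its group in 86.0% of these regions. Libraries did not overlap in 49.3% of them, beside 46.3% of all listed regions that were higher. A 1.5-fold difference of the means was kept by 4972 of the 9160 once that library was left out. Among the 1713 regions lower in DCL, the medians were 3.14, 5.97 and 5.92 in DCL and 18.5, 17.4 and 17.6 in control. The medians of all DCL libraries lay below those of control, in regions already selected for a lower DCL mean. The libraries did not overlap in 99.7% of the regions, the same share as among all listed ones. The median of 3.14 in the first-listed library stands for 1 read, and 38.6% of these regions had no read in it.

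**Figure D2:**
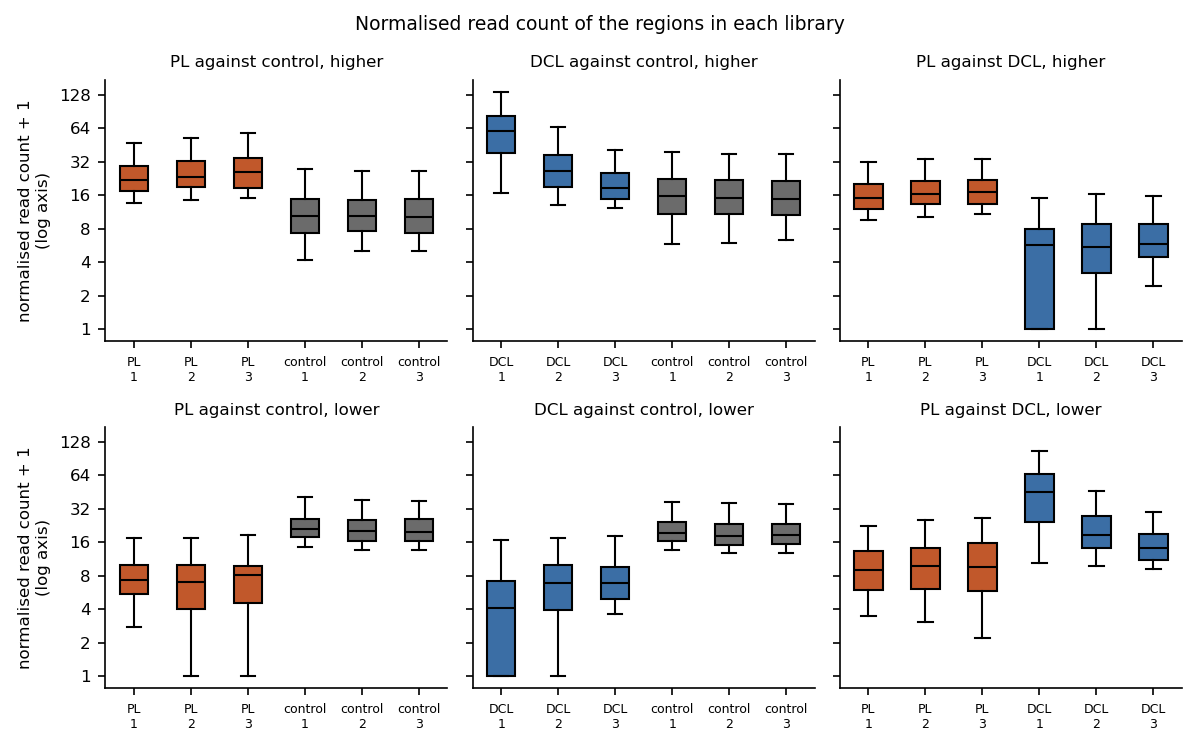
Boxes give the normalised read count plus 1 (log axis) of the regions in each library, with the median, the quartiles and whiskers from the 5th to the 95th percentile, for each comparison and direction. The 3 PL libraries sit level with each other, while the first-listed DCL library stands above the other two where DCL is the higher group.

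Between the lesions, the 1801 regions higher in PL had medians of 14.3, 15.4 and 15.95 in PL and 4.68, 4.43 and 4.88 in DCL, and the libraries did not overlap in 98.7% of them, beside 98.5% of all listed ones. The 5220 regions lower in PL had medians of 8.06, 8.75 and 8.59 in PL and 44.5, 17.7 and 13.2 in DCL. Here the first-listed DCL library was again the highest of its group in 80.0% of regions, the libraries did not overlap in 60.9%, beside 58.9% of all listed ones, and 3734 regions kept a 1.5-fold difference without that library. For gains and losses the median log2 ratio was 1.21 and -1.54 on the PL table and 1.17 and -1.62 on the DCL table. For PL set against DCL it was 1.56 and -1.45. Leaving out the first-listed DCL library took the median of the gains after DCL to 0.61 and that of the regions lower in PL than in DCL to -0.92.

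An adjusted p under 0.05 in the authors' deposited table was held by 1989 gains and 1697 losses after PL, beside 98.1% and 99% of all listed ones. It was held by 8969 gains and 1702 losses after DCL, beside 97.6% and 99.6%, and by 1790 regions higher and 5133 lower in PL than in DCL, beside 99.3% and 98.3%. At the stricter limit of 0.01, 943 of the 2031 gains and 893 of the 1714 losses after PL remained, beside 47.1% and 51.8% of all listed gains and losses. After DCL 8437 gains and 1676 losses passed it, beside 91.3% and 97.7%, and between the lesions 1715 and 4840 did, beside 95.2% and 92.4%. Intergenic regions passed either limit at about the rate of their tables.

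The regions were short and mostly isolated. Their median length was 220 bp for gains and 200 bp for losses after PL, and 240 and 200 bp after DCL. For all listed regions it was 220 and 200 bp after PL, and 240 and 220 bp after DCL. The shortest length was 200 bp, which 51.6% of the class losses after PL and 51.3% after DCL had, so length was not particular to the class. Neighbouring regions of the same table lay a median of 217 kb apart on the PL table, 52.4 kb on the DCL table and 92.4 kb between the lesions. Of the neighbouring pairs within 10 kb on the PL table, 57.2% had the same direction, against 53.3% of all neighbouring pairs. On the DCL table these shares were 77.3% and 74.3%, so close neighbours had the same direction little more often than distant ones.

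Because the tables name no gene for these regions, each was placed between the nearest genes on either side that hold a listed region of their own in a gene body or promoter. The median distance to the nearest such gene was 39.2 kb for gains and 47.2 kb for losses after PL, and 28.3 kb and 45.0 kb after DCL. Between the lesions it was 40.4 kb for regions higher and 29.4 kb for regions lower in PL. Gains after DCL thus lay closer to these named genes than losses. The named genes were themselves set by the listed regions. Gene bodies held 19858 regions of the DCL table, of which 81.9% were gains, beside 7039 regions of the PL table. How far this choice of genes shaped the distances was not tested. A region is called placed between its neighbours where the RefSeq gene order of assembly GRCm38.p6 has no other protein-coding gene between them, which held for 55.6% of regions on the PL table, 56.2% on the DCL table and 56.6% between the lesions.

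The direction changed stepwise with distance to the named genes, which hold a listed region of their own. Within 10 kb of a named gene 88.6% of the DCL regions were higher than control, at 10 to 30 kb 86.7%, at 30 to 100 kb 83.0%, and beyond 100 kb 77.9%. These are shares of the listed regions: 16.4% of the losses after DCL lay within 10 kb, close to the 16.5% of the losses after PL, while 23.8% of the gains after DCL did. With regions that kept a 1.5-fold difference without the first-listed DCL library, the shares were 79.8%, 77.5%, 72.7% and 68.1% in the same order. Among regions whose libraries did not overlap they were 77.7%, 75.3%, 71.3% and 66.8%. The order was thus the same with and without that library. On the PL table the shares were 57.8%, 57.6%, 52.2% and 51.3%, a smaller range. Between the lesions the share higher in PL went the other way, from 20.9% and 22.7% to 27.6% and 31.5%. The mean read count moved with distance as well: the median of the mean of the higher group on the DCL table was 34.2 within 10 kb and 28.2 beyond 100 kb. Its part in the result was not tested.

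**Figure D3:**
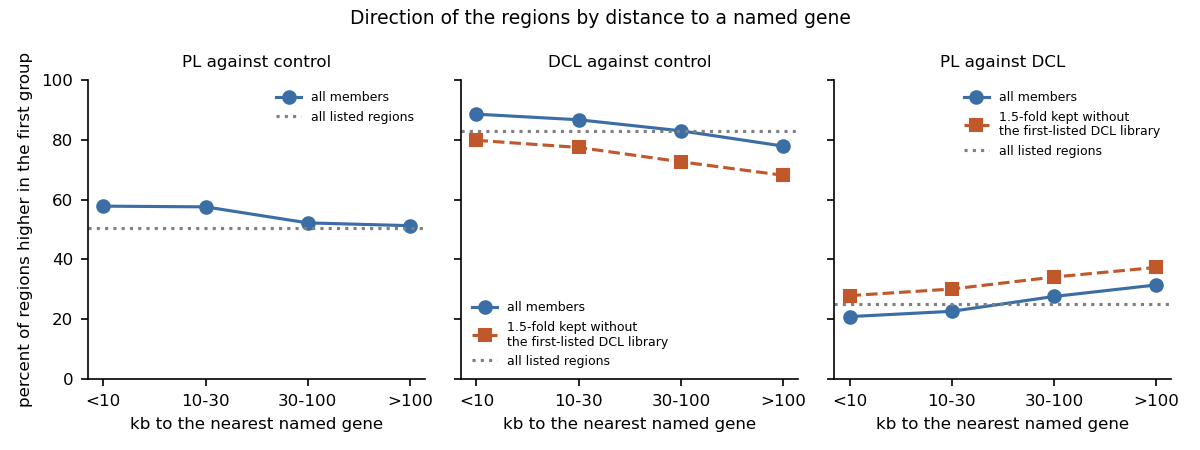
Points give the percent of other intergenic regions that were higher in the first-named group, by distance to the nearest named gene, with all regions (circles) and with regions that kept a 1.5-fold difference without the first-listed DCL library (squares); the dotted line is the share over all listed regions. Against control, the share higher in DCL goes from 88.6% within 10 kb to 77.9% beyond 100 kb. Named genes are those that hold a listed region of their own.

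The gains with the smallest adjusted p after PL lay near genes of varied function. At chr7:149006001-149006200, 18.8 kb from Muc5b, a gel-forming mucin, the normalised read counts were 19.04, 17.99 and 14.2 in PL and 2.1, 1.34 and 5.19 in control. The groups did not overlap, the fold was 5.94, and the adjusted p in the authors' deposited table was 0.00013. A region at chr2:75244661-75245060, 252 kb from the predicted gene Gm6793 and 530 kb from Mtx2, had 38.1, 32.99 and 33.7 in PL and 12.6, 12.02 and 10.4 in control. It was 2.99-fold higher, and all 3 PL libraries stood well above all 3 control libraries. Near Rabgap1l, which encodes a GTPase-activating protein for Rab proteins, the region chr1:162117161-162117400 had 16.3, 14.99 and 15.97 in PL and 2.1, 6.01 and 1.15 in control. This one was listed between the lesions as well, with 11.2, 10.3 and 11.04 in PL and 0, 4.43 and 2.93 in DCL, and it did not overlap there either. The region chr11:70561321-70561540, 15.8 kb from Kif1c, a kinesin that carries cargo along microtubules, had 13.6, 20.99 and 17.7 in PL and 1.05, 1.34 and 6.34 in control. It too was higher in PL than in DCL, with 8.06, 12.3 and 11.04 against 0, 1.11 and 3.41. For both regions the comparison between the lesions uses the same PL libraries. The region chr6:56394481-56394680, 82.1 kb from Pde1c, a calmodulin-dependent phosphodiesterase, had 11.8, 13.5 and 14.2 in PL and 1.05, 1.34 and 3.46 in control, a log2 ratio of 2.26. It held the largest ratio of a gain without overlap after PL.

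Losses after PL were as sharp. At chr3:85876181-85876560, 11.8 kb from Sh3d19, an adaptor with SH3 domains, the counts were 11.8, 6 and 1.77 in PL and 30.5, 30.7 and 34.6 in control. The control libraries lay close together and the adjusted p in the authors' deposited table was 0.0001. The region chr7:56165321-56165600, placed between E2f8, a repressor of the E2F family, and Nav2, a neuron navigator that acts in neurite outgrowth, had 0.91, 3 and 3.55 in PL and 19.99, 16.7 and 19.02 in control. Control was 7.47-fold higher and the groups did not overlap. Between Syf2 and Runx3, the transcription factor that sets the identity of proprioceptive neurons, the region chr4:134589941-134590240 had 3.63, 9 and 0 in PL and 25.2, 22.7 and 23.1 in control. It was the loss with the smallest adjusted p beside a gene of the sensory neuron list, 0.000151 in the authors' deposited table. It was the only loss of 3 PL regions beside Runx3, since the other 2 were higher. All 5 DCL regions beside Runx3 were higher, and all 3 between the lesions were lower in PL. The longest loss, chr7:141707941-141708360, lay between Adam12, a metalloprotease, and Dock1, an activator of Rac, with 21.8, 22.5 and 17.7 in PL and 50.5, 56.1 and 53.6 in control. Its fold was the mildest of these, since control was 2.58-fold higher, but the libraries of each group were tight. The region chr10:56618521-56618720, in the gap between Gja1 and Hsf2, had 4.53, 0 and 0 in PL and 13.7, 13.4 and 20.2 in control. Gja1 encodes the gap junction protein connexin 43 of satellite glia, and this was the largest log2 ratio of a loss without overlap after PL, -2.74.

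**Figure D4:**
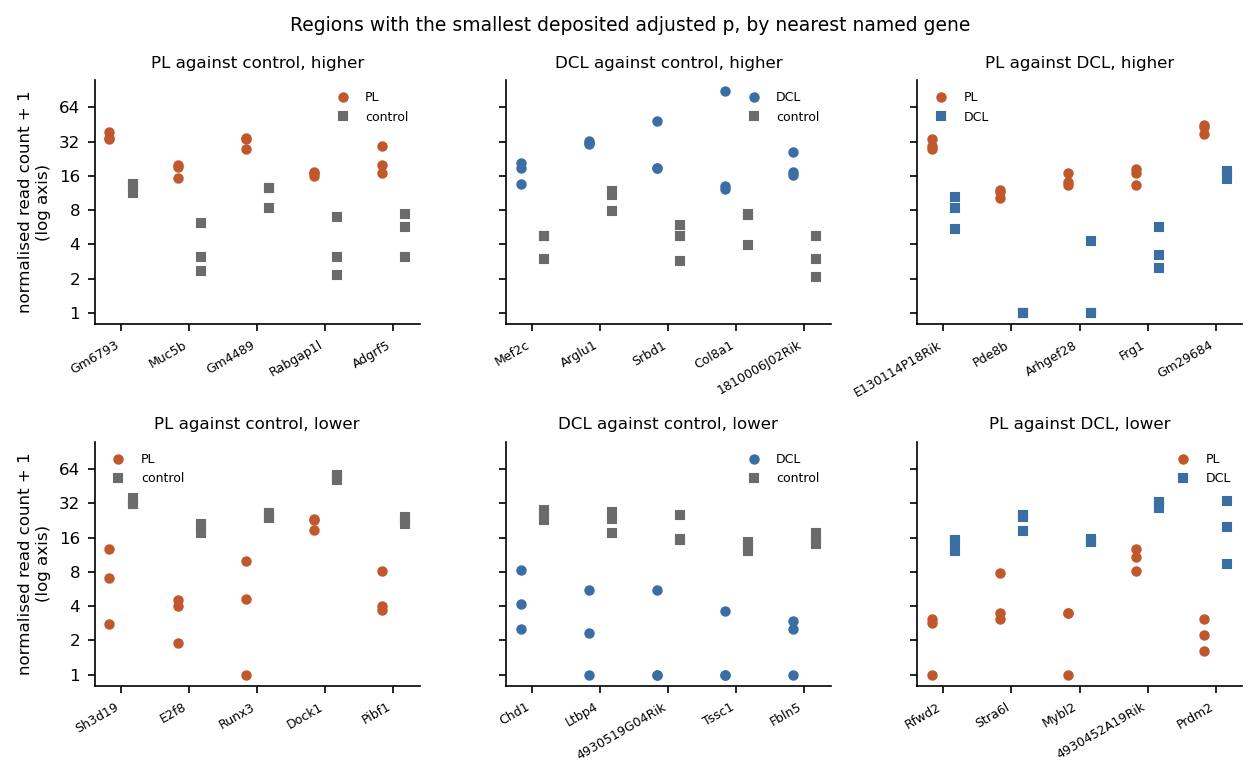
Points give the normalised read count plus 1 (log axis) in each library for the 5 regions of each comparison and direction with the smallest adjusted p in the authors' deposited table, labelled by the nearest named gene. In all of them the 3 libraries of one group lie beyond the 3 of the other, and in the region near Col8a1 the first-listed DCL library stands far above the other two.

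After the dorsal column lesion, the gain with the smallest adjusted p, 2.43e-05 in the authors' deposited table, was chr13:83810661-83810960, 3.98 kb from Mef2c, a transcription factor that couples neuronal activity to gene expression. Its counts were 12.6, 17.9 and 19.7 in DCL and 1.95, 3.72 and 3.74 in control. All 3 DCL libraries took part and the log2 ratio without the first-listed one was 2.26. The same place was lower in PL than in DCL, with 1.86, 6.17 and 7.36 against 9.36, 13.3 and 14.6, from the same DCL libraries. Near Arglu1, a modulator of splicing and nuclear receptors, the region chr8:9198881-9199260 had 31.4, 29.9 and 29.6 in DCL and 6.82, 9.92 and 10.7 in control. The DCL libraries lay within a narrow range here. At chr17:86382641-86382940, 1.06 kb from Srbd1, the counts were 47.05, 17.9 and 17.8 in DCL and 4.87, 1.86 and 3.74 in control, a fold of 7.9.

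Other large gains after DCL rested more on 1 library. Near Sar1b, a GTPase of vesicle budding from the endoplasmic reticulum, the region chr11:51606501-51606820 had 207, 49.3 and 17.8 in DCL and 12.7, 11.2 and 15.5 in control. Its log2 ratio of 2.71 was the largest of a gain without overlap after DCL, and it was 1.29 without the first-listed library. The region chr16:57985941-57986140, between Col8a1, a collagen chain, and Dcbld2, had 87.8, 11.9 and 11.2 in DCL and 2.92, 6.2 and 6.41 in control. Here the ratio went from 2.62 to 1.03 without that library. Between Fign, a microtubule-severing enzyme, and Grb14, an adaptor of the insulin receptor, chr2:64064301-64064500 had 81.5, 37.3 and 11.2 in DCL and 3.9, 8.06 and 5.88 in control, and the ratio went from 2.67 to 1.86. Each of these 3 was also lower in PL than in DCL, at log2 ratios of -2.20, -2.16 and -2.59, in a table that uses the same DCL libraries.

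Losses after DCL were low in all DCL libraries. The region chr17:15832261-15832520, 9.41 kb from Chd1, a chromatin remodeller, had 3.14, 1.49 and 7.24 in DCL and 23.4, 26.6 and 21.9 in control. Control was 6.06-fold higher and the adjusted p in the authors' deposited table was 0.000166. Between Numbl, a regulator of Notch signalling, and Ltbp4, which binds latent TGF-beta, chr7:28087261-28087520 had 0, 4.48 and 1.32 in DCL and 16.6, 22.3 and 25.6 in control. It held the largest log2 ratio of a loss after DCL, -2.94, and -2.53 without the first-listed library. Between Tssc1 and Myt1l, a transcription factor that keeps neurons from other fates, chr12:29684101-29684300 had 0, 0 and 2.63 in DCL and 12.7, 13.6 and 11.2 in control. The whole DCL signal there was 4 reads in 1 library. Near Adam19, another metalloprotease, chr11:45859681-45859880 had 0, 0 and 3.95 in DCL and 20.5, 11.2 and 15.5 in control. Again a single DCL library held reads, and control was 11.9-fold higher.

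Between the lesions, the region with the smallest adjusted p was chr4:97011681-97012100, 222 kb from E130114P18Rik, with 26.6, 32.9 and 28.2 in PL and 9.36, 4.43 and 7.31 in DCL. It was 4.16-fold higher in PL at an adjusted p of 5.12e-06 in the authors' deposited table, and higher in PL than in control as well, with 37.2, 44.98 and 37.3 against 16.8, 22.04 and 14.4. The region chr13:96042181-96042400, between Pde8b, a phosphodiesterase that degrades cyclic AMP, and Zbed3, had 10.5, 9.26 and 11.04 in PL and 0, 0 and 0 in DCL. No DCL library held a read, so no fold is given. Near Kmt2e, a chromatin protein of the lysine methyltransferase family, chr5:22903361-22903660 had 11.2, 17.5 and 11.04 in PL and 0, 0 and 1.95 in DCL. It was 20.3-fold higher in PL, with 4 reads in all behind the DCL value. Between P2ry2, a receptor for ATP and UTP, and Fchsd2, chr7:108199181-108199520 had 51.4, 81.2 and 82.2 in PL and 32.8, 35.5 and 38.04 in DCL. This was one of the most abundant regions higher in PL, and the libraries did not overlap.

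Regions lower in PL than in DCL included chr1:161064301-161064560, between Pappa2, a protease of insulin-like growth factor binding proteins, and Rfwd2, a ubiquitin ligase, with 1.86, 2.06 and 0 in PL and 14.1, 11.1 and 14.1 in DCL. All 3 DCL libraries lay between 11.1 and 14.1, and the ratio held at -2.56 without the first-listed one. Near Stra6l, chr4:45857461-45857740 had 6.82, 2.06 and 2.45 in PL and 23.4, 24.4 and 17.1 in DCL. It was listed against control too, where DCL had 31.4, 32.9 and 15.8 and control 13.7, 11.2 and 12.3. Between Prdm2, a lysine methyltransferase, and Pdpn, the membrane protein podoplanin, chr4:142825961-142826180 had 0.62, 2.06 and 1.23 in PL and 32.8, 18.8 and 8.29 in DCL. It held the largest log2 ratio in this direction, -3.19, and -2.66 without the first-listed library. Between Dennd1a and Lhx2, a developmental homeobox factor, chr2:38171141-38171380 had 3.72, 6.17 and 2.45 in PL and 112, 13.3 and 9.27 in DCL. Its ratio went from -3.17 to -1.26 without the first-listed library, so most of it came from 112 in that library.

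The regions were next grouped by known genes they adjoin, using lists of genes for regeneration, axon guidance, trophic signalling, sensory neurons and the other cells of the ganglion. A span could be set only for genes with a listed region of their own. This held for 17 of 36 regeneration-associated genes, 15 of 20 trophic, 10 of 28 sensory neuron and 19 of 25 ion channel genes. It held for 12 of 20 satellite glia and Schwann cell, 5 of 20 immune, 11 of 16 vascular and fibroblast and 6 of 16 housekeeping genes. Of the 17 regeneration-associated genes, 11 adjoined a placed region of the PL table, beside 20.1% of all 11214 genes with a span. On the DCL table it was 14 of 17, beside 37.7%, and between the lesions 12 of 17, beside 29.9%. The gaps around these genes were long: the flanking named genes lay a median of 284 kb apart around the regeneration genes and 98.5 kb around all genes. The part of gap length in the counts was not tested. After PL, 4 of the 11 had gains alone, 5 losses alone and 2 both, beside 950, 774 and 525 of the 2249 genes that adjoin a region. After DCL, 9 of the 14 had gains alone, 0 losses alone and 5 both, beside 2894, 221 and 1114 of 4229.

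Klf7 and Smad1, transcription factors that promote axon growth, adjoined losses after PL. All 4 PL regions beside Klf7 were lower. The one with the smallest adjusted p, chr1:64215381-64215680, 47.4 kb away towards Creb1, had 6.35, 10.5 and 12.4 in PL and 33.7, 34.1 and 21.3 in control. It was lower than in DCL too, with 4.34, 6.17 and 6.13 against 11.7, 18.8 and 16.1. After DCL 5 of 6 regions beside Klf7 were higher. The one at chr1:64463541-64463840 had 53.3, 52.3 and 13.2 in DCL and 10.7, 8.68 and 9.08 in control, a ratio of 1.95 and 1.68 without the first-listed library. Smad1, which transmits BMP signals, had 3 PL regions, all lower and all in the gap to Otud4. That at chr8:82135641-82135900 had 9.07, 3 and 8.87 in PL and 22.1, 23.4 and 23.6 in control, and the 3 log2 ratios ran from -1.95 to -1.27. The 1 DCL region beside Smad1, chr8:82048961-82049220, was higher, with 40.8, 32.9 and 15.1 in DCL and 11.7, 10.5 and 16.03 in control, where the groups overlapped. In the direct comparison of PL with DCL, 3 regions beside Klf7 were higher and 4 lower in PL. The one with the smallest adjusted p, chr1:64276201-64276440, was higher, with 16.1, 15.4 and 20.9 in PL and 0, 3.32 and 7.31 in DCL. The 1 such region beside Smad1, chr8:81958581-81958800, was higher in PL too, with 13.6, 10.3 and 13.5 in PL and 7.02, 2.22 and 3.41 in DCL. The gaps of both genes thus held places with more 5-hmC signal in PL than in DCL as well.

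Klf9, a Krüppel-like factor known to restrain axon growth, adjoined 11 regions of the DCL table, all higher, and 1 of the PL table, also higher. The DCL region with the smallest adjusted p, chr19:23163821-23164040, had 40.8, 19.4 and 17.1 in DCL and 11.7, 8.68 and 5.88 in control, and its log2 ratio of 1.46 became 0.98 without the first-listed library. The PL region, chr19:23244581-23244920, 3.18 kb from Klf9, had 35.4, 53.98 and 70.97 in PL and 27.4, 26.1 and 30.6 in control. The PL libraries all lay above control, by 1.91-fold. Sox11, a factor of neuronal differentiation, had 1 region in each table: higher after PL (21.8, 20.99 and 26.6 in PL and 13.7, 7.35 and 8.65 in control), higher after DCL at another place (31.4, 44.8 and 26.3 in DCL and 15.6, 14.9 and 14.96 in control), and lower in PL than in DCL at yet another (3.1, 5.14 and 2.45 in PL and 9.36, 11.1 and 13.2 in DCL). None of these 3 had overlapping libraries.

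Gap43, the growth cone protein, adjoined 1 region lower after PL, chr16:42611821-42612020, 271 kb away, with 2.72, 9 and 10.7 in PL and 14.7, 18.7 and 20.8 in control. Another, chr16:42526401-42526640, 186 kb away, was higher after DCL, with 18.8, 16.4 and 14.5 in DCL and 8.77, 6.2 and 4.27 in control. The gap runs to 4932412D23Rik, so the regions lie at a long range from either gene. Basp1, which acts with Gap43 at the membrane, adjoined 1 loss after PL, with 11.8, 6 and 8.87 in PL and 27.4, 31.4 and 28.8 in control at chr15:25428001-25428340. After DCL it adjoined 5 gains and 1 loss, and the loss had the smallest adjusted p, with 12.6, 2.99 and 7.24 in DCL and 24.4, 20.4 and 26.2 in control.

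The TET enzymes themselves had few neighbours. Beside Tet1 a PL region at chr10:62357981-62358200 was lower, with 5.44, 10.5 and 5.32 in PL and 18.9, 17.4 and 21.3 in control, and of 2 DCL regions 1 was higher and 1 lower. The lower one, chr10:62372541-62372740, had 3.14, 0 and 5.26 in DCL and 13.7, 11.2 and 16.03 in control. At the PL region and at this one the groups were apart. Beside Tet2 a PL region at chr3:133074741-133075060 was higher, with 24.5, 28.5 and 26.6 in PL and 14.7, 11.4 and 12.7 in control. After DCL both regions beside Tet2 were higher. The one 3.12 kb away, chr3:133123221-133123520, had 94.1, 16.4 and 18.4 in DCL and 20.5, 19.2 and 15.5 in control. Its log2 ratio of 1.18 became -0.074 without the first-listed library. Stat3, the cytokine-activated factor of the injury response, was in the same position: its DCL region, chr11:100806001-100806200, had 65.9, 19.4 and 6.58 in DCL and 15.6, 11.8 and 13.9 in control, and its ratio went from 1.10 to -0.076. In both, the ratio was above 0 with the first-listed library and slightly below 0 without it.

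Among 32 axon guidance genes, 15 adjoined a region of the PL table, 17 of the DCL table and 19 between the lesions, beside 20.1%, 37.7% and 29.9% of all genes. After PL, 2 had gains alone, 7 losses alone and 6 both, beside 950, 774 and 525 of all 2249 genes that adjoin a region. Their flanking genes lay a median of 1119 kb apart, so the surrounding gaps were long. The receptor Robo1 adjoined 3 losses after PL, and 2 gains and 1 loss after DCL. One, chr16:73097921-73098120, lies between Robo1 and Robo2 and had 5.44, 1.5 and 7.1 in PL and 13.7, 16.7 and 17.3 in control. In the same gap, chr16:73496401-73496640 was higher after DCL, with 72.1, 16.4 and 13.2 in DCL and 12.7, 5.58 and 9.08 in control. Its ratio of 1.79 became 0.64 without the first-listed library, and in the table against PL the libraries overlapped. Epha4, a receptor that repels growing axons, adjoined 3 losses after PL, and 1 gain and 1 loss after DCL. The PL region chr1:77972761-77972960 had 4.53, 10.5 and 5.32 in PL and 30.5, 16.7 and 21.9 in control. The counts in control were all above those in PL.

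The ligand Sema3a and its neighbour Sema3d share a gap with 1 region lower after PL, chr5:13223361-13223600, with 5.44, 10.5 and 3.55 in PL and 21.04, 22.04 and 17.9 in control. Another, chr5:13373821-13374020, 25.3 kb from Sema3a, was higher in PL than in DCL, with 11.2, 12.3 and 13.5 in PL and 0, 2.22 and 3.9 in DCL. Plxna4, a coreceptor for class 3 semaphorins, had 2 gains and 1 loss after PL, of which a gain 5.87 kb away, chr6:32544061-32544300, had the smallest adjusted p, with 21.8, 16.5 and 24.8 in PL and 5.26, 10.7 and 5.76 in control. Slit3, a ligand of Robo receptors, had one at chr11:35557801-35558020, with 15.4, 22.5 and 14.2 in PL and 6.31, 4.68 and 4.03 in control. Efna5, an ephrin ligand, adjoined 3 losses after DCL. That with the smallest adjusted p had 6.27, 7.47 and 3.29 in DCL and 18.5, 16.1 and 16.03 in control at chr17:63361221-63361460. Ephb1, one of its receptor family, had 2 gains and 2 losses after PL and 9 gains and 2 losses after DCL. In PL against DCL 4 of 5 regions were higher, and chr9:101811961-101812160, 12.3 kb away, had 12.4, 9.26 and 11.04 in PL and 0, 0 and 2.44 in DCL. There, 2 of the 3 DCL libraries held no read. Nrp2, a semaphorin receptor, had 3 regions lower in PL than in DCL, of which the one with the smallest adjusted p was chr1:62743301-62743500, with 9.92, 11.3 and 11.04 in PL and 77.3, 1.11 and 8.78 in DCL. Its ratio of -1.35 became 0.98 without the first-listed library, so that the sign turned.

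Among 15 genes of trophic signalling, 7 adjoined a region after PL and 7 after DCL, and 6 adjoined one that differed between PL and DCL, beside 20.1%, 37.7% and 29.9% of all genes. Igf1r, the receptor for insulin-like growth factor, adjoined 3 losses after PL, of which chr7:75077921-75078160 had 2.72, 6 and 8.87 in PL and 17.9, 16.7 and 17.3 in control. After DCL it adjoined 1 gain and 1 loss, and the loss, chr7:74959001-74959200, 138 kb from Igf1r, had 0, 1.49 and 4.61 in DCL and 12.7, 14.9 and 11.2 in control. The same place was higher in PL than in DCL, with 9.92, 12.3 and 12.3 in PL and 0, 1.11 and 3.41 in DCL. DCL was thus low in both tables, while control and PL, which were not set against each other there, had values of the same order. Ntrk2, the receptor of BDNF, adjoined 1 gain and 2 losses after PL and 3 of each after DCL. The region chr13:59408041-59408260, in the gap to Agtpbp1, was lower after PL, with 1.81, 1.5 and 3.55 in PL and 14.7, 12.7 and 14.98 in control, and lower after DCL, with 0, 0 and 5.92 against 13.7, 11.8 and 13.9 in control. Both lesions were therefore low at this place against the same control libraries.

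Gfra2, the receptor subunit for neurturin, adjoined 2 gains after PL, of which chr14:71245261-71245460 had 11.8, 28.5 and 23.1 in PL and 5.26, 4.68 and 8.65 in control. Igf1 adjoined 1 gain and 1 loss after PL, of which the gain, chr10:87178481-87178760, had 21.8, 26.99 and 24.8 in PL and 4.21, 10.7 and 6.34 in control. Neither of these regions had overlapping groups. Ntf3, the ligand of proprioceptive neurons, had a gain after DCL 2.85 kb away, chr6:126048361-126048580, with 31.4, 34.3 and 23.03 in DCL and 10.7, 13.6 and 13.9 in control. All DCL libraries lay above all control libraries. Fgfr2 had 3 of 4 regions higher after PL and 5 of 5 after DCL. The PL loss, chr7:137416181-137416540, 5.86 kb from it, had the smallest adjusted p of the 4, with 9.97, 12 and 5.32 in PL and 33.7, 33.4 and 27.1 in control. That place was also lower in PL than in DCL, with 6.82, 8.23 and 3.68 against 18.7, 27.7 and 17.1. Gfra1, the receptor subunit for GDNF, had 1 gain and 2 losses after PL, and 1 loss after DCL with 0, 5.97 and 5.26 in DCL and 21.4, 19.2 and 16.03 in control at chr19:58576941-58577160.

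Of 10 sensory neuron genes with a span, 3 adjoined a region after PL and 4 after DCL, beside 20.1% and 37.7% of all genes. Runx1, which directs nociceptor fate, adjoined 3 gains and 5 losses after PL, and 8 gains and 2 losses after DCL. The loss chr16:92959281-92959500 had 3.63, 7.5 and 0 in PL and 19.99, 16.03 and 14.98 in control. In the same gap chr16:93301681-93301920, the DCL region with the smallest adjusted p, was lower after DCL, with 12.6, 14.9 and 21.1 in DCL and 45.8, 41.5 and 39 in control, and lower after PL, with 15.4, 25.5 and 12.4 against 41.03, 39.4 and 36.3. Of 19 ion channel genes, 3 adjoined a region after PL, beside 20.1% of all genes, and 7 after DCL, beside 37.7%. Both were close to the background. The gap between Kcnj6, a G-protein-gated potassium channel, and Dyrk1a held a region on all tables. It had 25.4, 34.5 and 23.1 in PL and 11.6, 10.7 and 8.07 in control after PL, 47.05, 19.4 and 15.8 in DCL and 14.6, 11.8 and 11.2 in control after DCL, and 13.6, 18.5 and 13.5 in PL and 9.36, 4.43 and 2.44 in DCL between the lesions. PL was thus higher than control and higher than DCL at this place. The gain after DCL rested more on the first-listed library, without which its log2 ratio of 1.07 was 0.46. Near Kcna1 and Kcna6, voltage-gated potassium channels of axons, chr6:126655641-126655860 was lower in PL than in DCL, with 16.7, 12.3 and 13.5 in PL and 32.8, 32.1 and 28.8 in DCL, and lower than in control, with 28.1, 22.5 and 24.8 against 42.1, 71.5 and 55.9.

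Genes that mark other cells of the ganglion adjoined regions as well. Of 12 satellite glia and Schwann cell genes with a span, 3 adjoined a region after PL and 5 after DCL, beside 20.1% and 37.7% of all genes. Kcnj10, the potassium channel of satellite glia, had a gain after DCL 2.94 kb away, chr1:174268141-174268400, with 37.6, 25.4 and 28.9 in DCL and 12.7, 9.3 and 10.7 in control. Of 5 immune genes, 2 adjoined a region after PL and 3 after DCL, beside the same 20.1% and 37.7%. Ccl2, a chemokine that draws macrophages, adjoined 1 region that was higher after both lesions, with 22.7, 16.5 and 14.2 in PL and 5.26, 6.68 and 7.49 in control and 18.8, 16.4 and 17.1 in DCL and 4.87, 6.82 and 8.55 in control. It is 25.4 kb from Ccl2 in the gap to Asic2, and neither comparison overlapped. Of 11 vascular and fibroblast genes, 8 adjoined a region after PL and 9 after DCL, beside 20.1% and 37.7% of all genes. Flt1, a receptor for VEGF, had 1 gain and 1 loss after PL, and the gain, chr5:148552201-148552460, had 22.7, 16.5 and 17.7 in PL and 5.26, 6.01 and 4.61 in control. Col3a1, a fibrillar collagen, had 2 losses after PL and 3 gains after DCL, and the loss chr1:45409461-45409720 had 3.63, 3 and 7.1 in PL and 28.4, 18.03 and 16.1 in control. Flanking genes lay a median of 386 kb apart around the vascular and fibroblast genes, beside 98.5 kb around all genes. The part of gap length in these counts was not tested. Of 6 housekeeping genes 1 adjoined a region after PL and 2 after DCL, beside 20.1% and 37.7%, in surroundings of 27.8 kb. How far cells other than neurons take part in any of these regions was not tested.

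A few long gaps between genes held many regions, and those below were chosen after their counts were seen. Of the 1240 placed gaps with a region on the PL table, 64.1% held 1 region and 92 held 4 or more. Of these 92, 72 had both directions, 10 had gains alone and 10 losses alone. Of the 2497 gaps with a DCL region, 494 held 4 or more, of which 302 had both, 192 gains alone and 0 losses alone. Between the lesions it was 259 of 1920, with 199, 1 and 59. Most crowded gaps thus held regions of both directions. Over the whole class, 54.2% were higher after PL, 84.2% after DCL and 25.7% in PL against DCL. How many mixed gaps these shares alone would give was not tested. Among all listed regions, libraries did not overlap in 95.6% of gains and, after rounding, 100% of losses after PL. After DCL these shares were 46.3% and 99.7%. Between the lesions they were 98.5% of regions higher and 58.9% of regions lower in PL. The counts of regions with libraries apart below stand beside these shares.

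The gap of 741 kb between Sash1, a scaffold protein, and Samd5 held 7 regions of the PL table, all lower, at log2 ratios from -1.79 to -1.06. In 6 of the 7 the libraries did not overlap. On the DCL table the same gap held 8 higher and 4 lower regions, and 5 of the 8 kept a 1.5-fold difference without the first-listed library. The gap of 945 kb between Pik3r1, a regulatory subunit of PI3 kinase, and Cd180 held 6 regions after PL, all lower and all apart, from -1.93 to -1.17. On the DCL table it held 7 lower regions, all apart, and 4 higher ones, none of them apart. Over all listed regions, 99.7% of losses and 46.3% of gains after DCL were apart. The 7 losses ran from -2.25 to -1.03. The PL loss with the largest ratio, chr13:103101541-103101740, had 3.63, 3 and 1.77 in PL and 13.7, 14.7 and 12.1 in control.

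The gap of 479 kb between Map3k1, a kinase upstream of JNK, and Ankrd55 held 21 higher regions and 1 lower region after DCL. Of the 21, 11 had libraries apart and 10 kept a 1.5-fold difference without the first-listed library. After PL the gap held 4 regions, all lower. Between the lesions 16 regions were lower in PL and 2 higher. The region of this gap with the largest ratio, chr13:112929061-112929260, had 78.4, 22.4 and 21.1 in DCL and 5.85, 14.2 and 12.3 in control in one table and 6.82, 8.23 and 3.68 in PL and 58.5, 16.6 and 15.6 in DCL in the other. The gap between Tgfbr2, the TGF-beta receptor, and Rbms3 was mixed: 7 higher and 7 lower regions after DCL, and 3 and 3 after PL. All 7 losses after DCL were apart, while 2 of the 7 gains were, beside 99.7% and 46.3% of all listed losses and gains. Within 100 kb in it lay 4 of the losses, one of the densest such stretches after DCL.

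**Figure D5:**
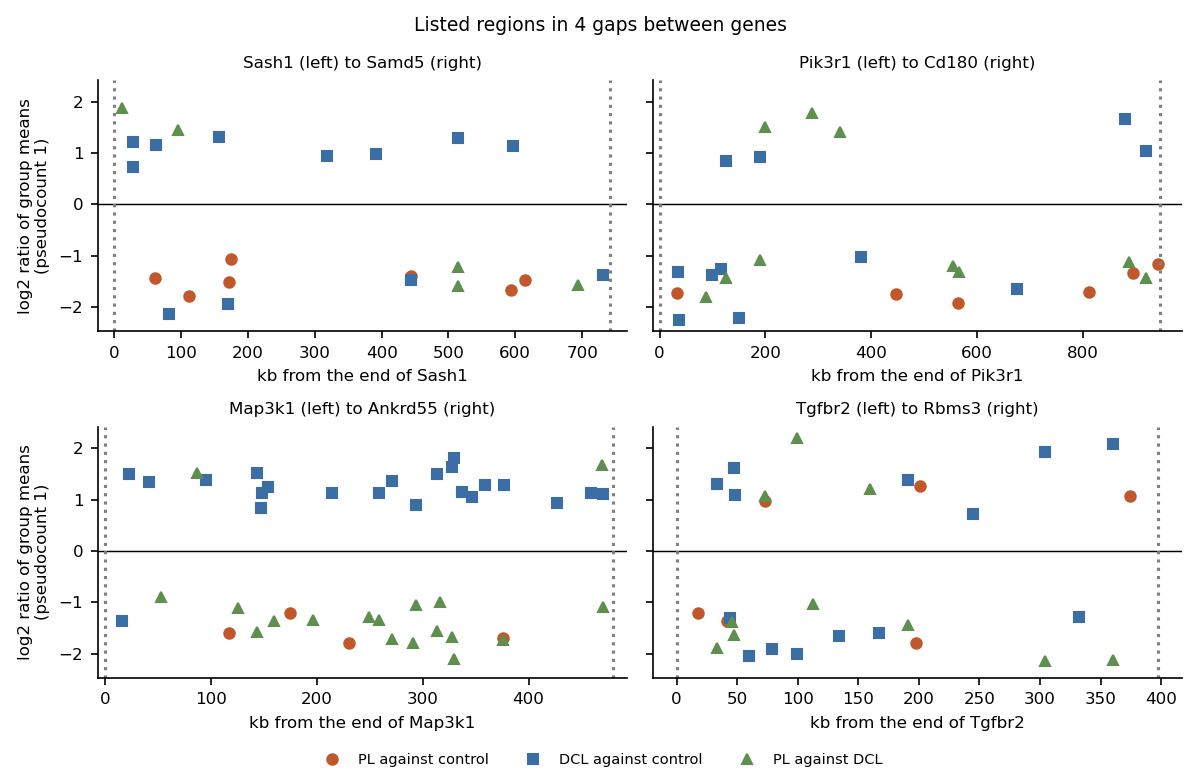
Each point is a listed region in 4 gaps between genes, by its distance from the end of the gene on the left (kb) and its log2 ratio of group means after adding 1, with PL against control, DCL against control and PL against DCL as circles, squares and triangles. Dotted lines mark the ends of the genes. Between Map3k1 and Ankrd55 the 21 squares above 0 stand over the 4 circles below 0.

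Gains alone filled the gap of 347 kb between Sdk2, a synaptic adhesion protein, and 4932435O22Rik, with 6 regions after PL, all apart, from 0.90 to 1.27. After DCL it held 8 higher regions, of which 3 were apart. The gap of 1693 kb between Tenm3, a teneurin that guides synaptic partner choice, and Gm2516 held 7 losses and 2 gains after PL. Within 100 kb of it lay 5 of the losses, with PL means from 4.30 to 9.57 and control means from 18.4 to 26.9. After DCL it held 8 gains, of which 6 were apart, and 2 losses. Between the lesions it held 7 regions higher in PL, all apart, and 5 lower. The gap between Foxo1, a target of insulin signalling, and Gm2447 held 7 losses and 2 gains after PL, all apart, but 13 gains and 2 losses after DCL, where 4 of the 13 were apart. The gap between Gja1 and Hsf2 held 5 losses and 2 gains after PL, and 4 losses and 7 gains after DCL. Those losses were apart in all 4 and those gains in 1. Among all listed regions after DCL, 46.3% of gains and 99.7% of losses were apart.

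Some intergenic regions had very high counts. Between Lrrc4c and B230118H07Rik on chromosome 2, 1034 kb from Lrrc4c, the region chr2:98506181-98507220 had 7926, 13329 and 22898 in PL and 6823, 5286 and 6709 in control. The enrichment in the authors' deposited table was 0.5 for PL and 0.3 for control, both under 1, that is, below a background that the tables do not define. After DCL the same region had 31832, 12174 and 5173 in DCL and 6321, 4905 and 6219 in control, and the groups overlapped. A region on chromosome 9 near Fam118b, chr9:35112601-35113300, had 6558, 2420 and 1048 in DCL and 1322, 940 and 1191 in control and enrichments of 0.39 and 0.28. A region that shares the greatest length of the class, chr15:74915801-74916980 with 1180 bp, had 1669, 415 and 167 in DCL and 285, 216 and 182 in control and enrichments of 0.53 and 0.18. Regions with enrichment under 1 in both groups were few: 37 gains and no loss after PL, 35 and 3 after DCL, and 5 and 9 between the lesions. The 37 gains after PL were 1.82% of the class gains, beside 2.83% of all listed gains and 0.099% of all listed losses. After DCL it was 0.38% of gains and 0.18% of losses, beside 0.52% and 0.22%. Between the lesions it was 0.28% of regions higher and 0.17% of regions lower in PL, beside 0.66% and 0.14%.

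The class was found on every autosome and on the X chromosome. Its share of the listed regions on the PL table ran from 25.1% on chromosome 19 to 38.3% on chromosome 13, and on the DCL table from 24.9% to 39.8% on the same chromosomes. The share of its regions that were higher after PL ran from 41.4% on chromosome 3 to 63.2% on chromosome 11 among the autosomes. After DCL it ran from 80.4% on chromosome 6 to 87.7% on chromosome 14, a narrower range. Gene bodies had 43.0% higher on chromosome 3 and 62.1% on chromosome 11 after PL, so this range was not particular to the class. After DCL they had 78.7% on chromosome 6 and 79.8% on chromosome 14. On the X chromosome 28 of 35 regions were higher after PL, and 6 of the 28 lay in a single stretch next to Mid1. Among gene body regions on the X chromosome, 43.4% were higher after PL.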

How the data were processed

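DNA of whole mouse ganglia was sheared to about 250 bp, fragments with 5-hmC were tagged with biotin and captured, and paired reads of 50 bp were sequenced, per the labels' protocols. There were 9 enriched libraries, and 3 inputs that were not used here. Names in the submitters' processing notes are SAMtools 0.1.19, Bowtie2 2.2.0 and MACS2 2.1.1, with the build mm9. No source used here names the region caller, its test or its background.

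The authors deposited 1 table for each pair of groups. The count cells the authors deposited each hold 3 normalised read counts. The group averages are a signal that the authors made as the mean of these 3. Enrichment values are a ratio, as deposited, to a background that no header defines. The deposited log2 fold change is that of the averages, and the p-values and adjusted p-values are the authors' own. In every library all low values fell within 0.1 of a step from a whole number of reads. Sequencing depth is unknown.

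Since the tables list selected regions, no count model was fitted, and the test foreseen for raw counts of every region was not used. Log2 ratios used a pseudocount of 1. Libraries are given in listed order, since the count cells carry no replicate number. Gene spans came from rows in gene bodies and promoters of 11214 genes, of which 99.8% matched RefSeq names of GRCm38.p6, used for names and gene order.

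Named in each table and direction were the 5 regions with the smallest deposited adjusted p, the 3 with the largest ratio without overlap, the 3 with the highest mean, the longest, the 3 densest stretches of 100 kb, and, beside each gene of 9 lists, the region with the smallest adjusted p. The text gives a choice of these, made after their values were seen. The members and lists were chosen with earlier results of these data known. Alternatives were stricter adjusted p limits, other pseudocounts, a minimum mean of 20, the left-out rows added, and each library left out. The calculations were tested on simulated data and ran in python 3.11.15 with pandas 2.3.3, numpy 2.4.6 and scipy 1.17.1, with figures from matplotlib 3.10.9.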

Additional observations from a re-analysis of the deposited data

Results flagged for a closer look

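At 22 places a region lower or higher after PL overlapped, by 20 to 220 bp, a region that went the other way after DCL, 18 of them lower after PL and 4 higher. In 6 of them all libraries of each lesion lay beyond all control libraries in their own table. These were 3 of the 18 and 3 of the 4. Over all listed regions, libraries did not overlap in 46.3% of gains and 99.7% of losses after DCL. Elsewhere the DCL gain could rest on the first-listed library, as near Krr1 and Rreb1. The DCL counts there were 59.6, 16.4 and 6.58, and 78.4, 7.47 and 13.2. No count of overlapping regions that went the same way is given beside the 22. Both tables use the same control libraries, and the difference between the lesions was not tested. At 3.53 kb from Ap3b1, a subunit of the AP-3 vesicle coat, the log2 ratio was -1.56 after PL, with 9.97, 1.5 and 8.87 against 22.1, 20.7 and 23.1 in control. After DCL it was 0.94 there, with 78.4, 58.2 and 30.9 against 25.3, 30.4 and 30.5. At 45.5 kb from Csnk2a1, a catalytic subunit of casein kinase 2, it was -1.86 after PL and 1.16 after DCL. At 5.56 kb from Atg4c, a protease of autophagy, it was -1.31 and 0.99. The other 3 were higher after PL and lower after DCL. At 108 kb from Clmp, an adhesion molecule of epithelia, the ratio was 1.14 after PL, with 19.95, 35.99 and 24.8 against 12.6, 8.68 and 13.8 in control. After DCL it was -1.40, with 9.41, 5.97 and 3.95 against 17.5, 17.4 and 20.8. At 45.9 kb from Arhgap12, a GTPase-activating protein, it was 1.34 and -1.75, and 6.49 kb from Fam114a1 it was 0.87 and -1.80. The PL and DCL regions of a place were different windows. Near Ap3b1 and Csnk2a1 they shared 200 and 220 bp, but near Clmp 40 bp and near Fam114a1 80 bp. Near Arhgap12 they shared 60 bp, with control means of 6.22 in the PL region and 17.4 in the DCL region. Near Atg4c, also with 60 bp shared, control means were 23.2 and 11.1. Where little is shared, opposite directions at the same bases are not shown. The first-listed DCL library held no read in the regions near Arhgap12 and Fam114a1.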

How the results depend on the processing

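Leaving out the first-listed DCL library moved more results than leaving out any other. Over the libraries left out, the regions higher in DCL than in control that kept a 1.5-fold difference numbered from 4972 to 9156. The median log2 ratio of regions higher in PL than in DCL ran from 1.47 to 1.62. That of regions lower in PL than in DCL ran from -1.72 to -0.92, and was -1.59 with the second-listed DCL library left out. When the first-listed one was left out, the sign turned for the regions beside Stat3 (-0.076), Tet2 (-0.074) and Nrp2 (0.98). Of 1080 alternative values of 135 named regions, 947 moved by less than the spread between libraries, 130 by more in the same direction, and these 3 turned.

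At an adjusted p under 0.01 in the authors' deposited table, there were 943 gains and 893 losses after PL, and the share higher was 51.4% after PL and 83.4% after DCL. With a mean of at least 20 in the higher group there were 799 losses after PL, 621 losses after DCL and 445 regions higher in PL than in DCL, with medians of -1.39 for the first and 1.20 for the last. With a pseudocount of 0.1 the medians were -1.67 for losses after PL, and 1.73 and -1.55 for regions higher and lower in PL than in DCL. With a pseudocount of 5 they were 0.96 and -1.14 for gains and losses after PL, -1.18 for losses after DCL, and 1.08 and -1.12 for PL against DCL. Limits on fold with all libraries and on enrichment, and the settings by distance and gap, were chosen after seeing the data. Limits on fold and enrichment left all 6 counts of the class within 1.5 times. The cause of these shifts was not tested.

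No paired analysis was possible because the count cells carry no replicate numbers and the tables list selected regions, so the fit with a replicate block was not run. At low counts few reads stand behind a value: among losses after DCL the median in the first-listed library stood for 1 read. Leaving that library out kept 1713 of the 1713 losses at 1.5-fold.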
